A study of Homo sapiens with 24 samples.

Results

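The genes described here are CXCL1, CXCL2, CXCL3, CXCL5, CXCL8 and CXCL16, secreted or membrane-bound chemokines of the CXC family. They were chosen by name, as the rows of the count matrix whose Ensembl identifiers carry these symbols, and are 6 of 60617 genes. The choice was made with earlier results of these data known, so their standing against all tested genes is a description and not a test. All 6 passed the filter on low counts that left 13098 genes for testing. The cells were THP1, a human monocytic leukaemia line, turned into adherent macrophages with the phorbol ester PMA. The study crossed the genotype of CD33, an inhibitory receptor of the Siglec family, with knockdown of PTPN6, which encodes the phosphatase SHP-1 that binds inhibitory receptors of this kind.

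The 4 groups were CD33 knockout cells with a hairpin against PTPN6 (CD33KO_shPTPN6, 5 libraries), CD33 knockout cells with the empty pLKO.1 vector (CD33KO_shCTRL, 6 libraries), wild-type cells with the hairpin (WT_shPTPN6, 6 libraries) and wild-type cells with the empty vector (WT_shCTRL, 6 libraries). All 4 groups had been exposed to lentivirus from HEK-293FT cells for 24 hours, rested for 48 hours and selected with 1 µg/ml puromycin. All had then received 10 ng/ml PMA for 48 hours and had been kept for another 48 hours without it. The labels name a single hairpin, an empty vector in place of a non-targeting hairpin, and do not say how many clones the knockout line came from, whether the replicates were separate cultures, or which part of CD33 was cut. The p-values therefore measure the spread between these libraries, which may be technical.

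CXC chemokines guide white blood cells up a concentration gradient through G protein-coupled receptors. CXCL1, CXCL2, CXCL3, CXCL5 and CXCL8 carry a Glu-Leu-Arg motif near their amino terminus and attract neutrophils through CXCR2, and CXCL8, also known as interleukin-8, acts on CXCR1 as well. CXCL16 lacks that motif. It is made as a transmembrane protein that takes up oxidised lipoprotein, is cut from the cell surface by ADAM10 and ADAM17, and attracts T cells and NK T cells through CXCR6. The heading of neutrophil-attracting chemokines therefore covers 5 of the 6 genes. In macrophages the genes of these 5 chemokines are classical targets of NF-kB downstream of interleukin-1, TNF and Toll-like receptors, and their mRNAs carry AU-rich elements that shorten their life.

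The 5 genes lie in the CXC chemokine cluster of chromosome 4. In gencode release 29 (GRCh38) CXCL8 occupies chr4:73740506-73743716 and CXCL1 chr4:73869393-73871242, both on the plus strand. CXCL5 is at chr4:73995642-73998779, CXCL3 at chr4:74036589-74038807 and CXCL2 at chr4:74097035-74099293, all on the minus strand. CXCL16 lies apart from them at chr17:4733526-4739922 on the minus strand.

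The 5 clustered genes have a RefSeq promoter sequence (GRCh38.p14), and the 140 bases before each start site are shown because these genes moved together in the knockout and share an NF-kB type element there. They run 5′ to 3′ on the gene's own strand, and capitals mark the letters GGAATTTCC and, in CXCL8, the AP-1 type letters TGANTCA. Start sites are those of RefSeq, and only that of CXCL1 matches the start of the gencode gene. In CXCL2, CXCL3, CXCL5 and CXCL8 the gencode gene begins further upstream, so part of the printed stretch lies within it.
CXCL1, chr4:73869253-73869392, plus strand: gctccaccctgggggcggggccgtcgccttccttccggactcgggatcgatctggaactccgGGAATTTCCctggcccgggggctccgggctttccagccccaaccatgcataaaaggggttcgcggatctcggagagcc
CXCL2, chr4:74099196-74099335, minus strand: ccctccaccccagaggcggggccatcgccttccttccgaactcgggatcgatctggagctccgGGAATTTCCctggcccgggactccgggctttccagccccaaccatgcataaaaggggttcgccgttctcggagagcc
CXCL3, chr4:74038690-74038829, minus strand: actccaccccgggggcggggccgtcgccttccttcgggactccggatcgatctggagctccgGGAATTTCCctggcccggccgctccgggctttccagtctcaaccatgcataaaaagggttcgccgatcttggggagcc
CXCL5, chr4:73998678-73998817, minus strand: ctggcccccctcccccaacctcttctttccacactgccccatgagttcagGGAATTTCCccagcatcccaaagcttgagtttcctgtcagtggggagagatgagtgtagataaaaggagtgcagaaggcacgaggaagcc
CXCL8, chr4:73740429-73740568, plus strand: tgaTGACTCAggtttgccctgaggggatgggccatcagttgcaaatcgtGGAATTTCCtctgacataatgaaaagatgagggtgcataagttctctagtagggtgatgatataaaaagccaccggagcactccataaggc

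Counted from the start site, GGAATTTCC began at -78 in CXCL1, -77 in CXCL2, -78 in CXCL3, -90 in CXCL5 and -91 in CXCL8. Searched on both strands from 250 bases before to 50 bases after the start, these letters were in 5 of 5 promoters of the group and in 162 of 35116 promoters, 0.461%. A further G stood before these letters in 4 of 5, all but CXCL8, against 0.145% of all promoters. CXCL8 alone of the 5 held TGANTCA, which 7.71% of all promoters hold, and TATAAA, which 11.5% hold. CXCL1, CXCL2 and CXCL3 had CATAAAA at -31 in place of TATAAA, against 3.7% of all promoters. These letters were chosen after the sequences had been read, so the counts describe the promoters and are not a test, and a match is not a measured binding site.

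The promoters of CXCL1 and CXCL3 were 82.5% identical over their 300 bases, those of CXCL2 and CXCL3 73.7% and those of CXCL1 and CXCL2 69.8%. CXCL8 stood apart, with 43% to 44.7% identity to the others of its cluster. CXCL5 and CXCL6, a neutrophil chemokine of the same cluster that is described further down and was not among the 6, were 83.1% identical.

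The libraries held between 2024032 and 2581042 counts in CD33KO_shPTPN6, 2048161 and 3749258 in CD33KO_shCTRL, 3318001 and 6269304 in WT_shPTPN6, and 4170191 and 5700712 in WT_shCTRL. PTPN6 averaged 7.41 ± 2.75 CPM (counts scaled to the library's size) in CD33KO_shPTPN6 (SD, n = 5), 37.7 ± 3.88 in CD33KO_shCTRL, 10.6 ± 1.45 in WT_shPTPN6 and 44.6 ± 6.24 in WT_shCTRL (SD, n = 6 each). CD33 was at 23.5 ± 4.86 CPM in CD33KO_shPTPN6 and 20.2 ± 2.45 in CD33KO_shCTRL, against 88.8 ± 5.33 in WT_shPTPN6 and 45.5 ± 3.24 in WT_shCTRL. Counts at the 3′ end of CD33 do not show whether the transcript is intact. The CD33KO_shCTRL replicate 2 library stood apart from its group, with 27 genes at least 2-fold from the rest of the group against 0 to 17 in the other libraries, and results that move with it are given without it as well.

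CPM values here are TMM-scaled and come from reads of the 3′ ends of polyadenylated RNA, about 1 position per transcript, so that levels of different genes can be set beside each other without a length correction. In a culture, fewer cells that express a gene and less RNA per cell cannot be told apart. Changes are log2 fold changes ± SE from the edgeR quasi-likelihood test, and a gene was called at a Benjamini-Hochberg adjusted p under 0.05 over all 13098 genes.

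CXCL8, the most abundant of the 6, had 1471, 1511, 1574, 1579 and 1616 CPM in the 5 CD33KO_shPTPN6 libraries. It ranged in CD33KO_shCTRL from 833.3 to 2220 CPM with a median of 1852, in WT_shPTPN6 from 216 to 365 with a median of 252, and in WT_shCTRL from 73.4 to 94.6 with a median of 87.7. The 11 knockout libraries all lay above the 12 wild-type ones. The lowest knockout library was CD33KO_shCTRL replicate 2 at 833.3 CPM, and the other 5 of its group ran from 1664 to 2220.

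CXCL3, a close relative of CXCL1 and CXCL2, followed with 100, 106, 108, 114 and 119 CPM in CD33KO_shPTPN6. It ranged from 105 to 191 CPM with a median of 167 in CD33KO_shCTRL, from 4.73 to 7.44 with a median of 5.59 in WT_shPTPN6, and from 1.51 to 4.48 with a median of 2.87 in WT_shCTRL. The knockout groups overlapped each other, while every other pair of groups was apart.

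CXCL1, first described as a melanoma growth factor and later as a neutrophil chemokine, had 47.0, 47.6, 48.0, 50.5 and 62.7 CPM in CD33KO_shPTPN6. It ranged from 117 to 152 CPM with a median of 148 in CD33KO_shCTRL, from 5.12 to 7.22 with a median of 6.15 in WT_shPTPN6, and from 3.68 to 5.85 with a median of 4.31 in WT_shCTRL. Here the 2 knockout groups did not overlap, and the 2 wild-type groups did.

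CXCL2, also called macrophage inflammatory protein 2-alpha, had 40.5, 43.1, 43.8, 50.5 and 55.3 CPM in CD33KO_shPTPN6. It ranged from 47.7 to 90.9 CPM with a median of 80.1 in CD33KO_shCTRL, from 1.504 to 4.853 with a median of 2.9999 in WT_shPTPN6, and from 0.900 to 2.07 with a median of 1.02 in WT_shCTRL. Neighbouring groups of the same genotype overlapped, and the genotypes did not.

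CXCL5, known from epithelial cells and activated monocytes, had 4.45, 5.67, 6.73, 6.95 and 8.68 CPM in CD33KO_shPTPN6. It ranged from 32.4 to 45.3 CPM with a median of 39.8 in CD33KO_shCTRL, from 1.37 to 3.24 with a median of 1.62 in WT_shPTPN6, and from 0.409 to 2.29 with a median of 0.608 in WT_shCTRL. In WT_shCTRL these levels rest on 29 counts over all 6 libraries.

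CXCL16 had 31.4, 33.1, 33.7, 35.2 and 48.9 CPM in CD33KO_shPTPN6. It ranged from 32.8 to 47.5 CPM with a median of 39.3 in CD33KO_shCTRL, from 16.6 to 21.3 with a median of 19.4 in WT_shPTPN6, and from 9.40 to 15.4 with a median of 12.6 in WT_shCTRL. The knockout groups overlapped almost fully, and the wild-type groups were apart.

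The order of the group means was therefore the same for all 6 genes, with CD33KO_shCTRL highest, then CD33KO_shPTPN6, WT_shPTPN6 and WT_shCTRL. The step between CD33KO_shPTPN6 and CD33KO_shCTRL exceeded the spread without overlap for CXCL1 and CXCL5, and was not called for CXCL8 and CXCL16. The step between WT_shPTPN6 and WT_shCTRL was free of overlap for CXCL3, CXCL8 and CXCL16. The filter asked for about 2.93 CPM in the smallest group's number of libraries. CXCL5 reached that level in 1 of 6 WT_shPTPN6 and 0 of 6 WT_shCTRL libraries and CXCL2 in 3 and 0, so these genes passed through the knockout groups.

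**Figure D1:**
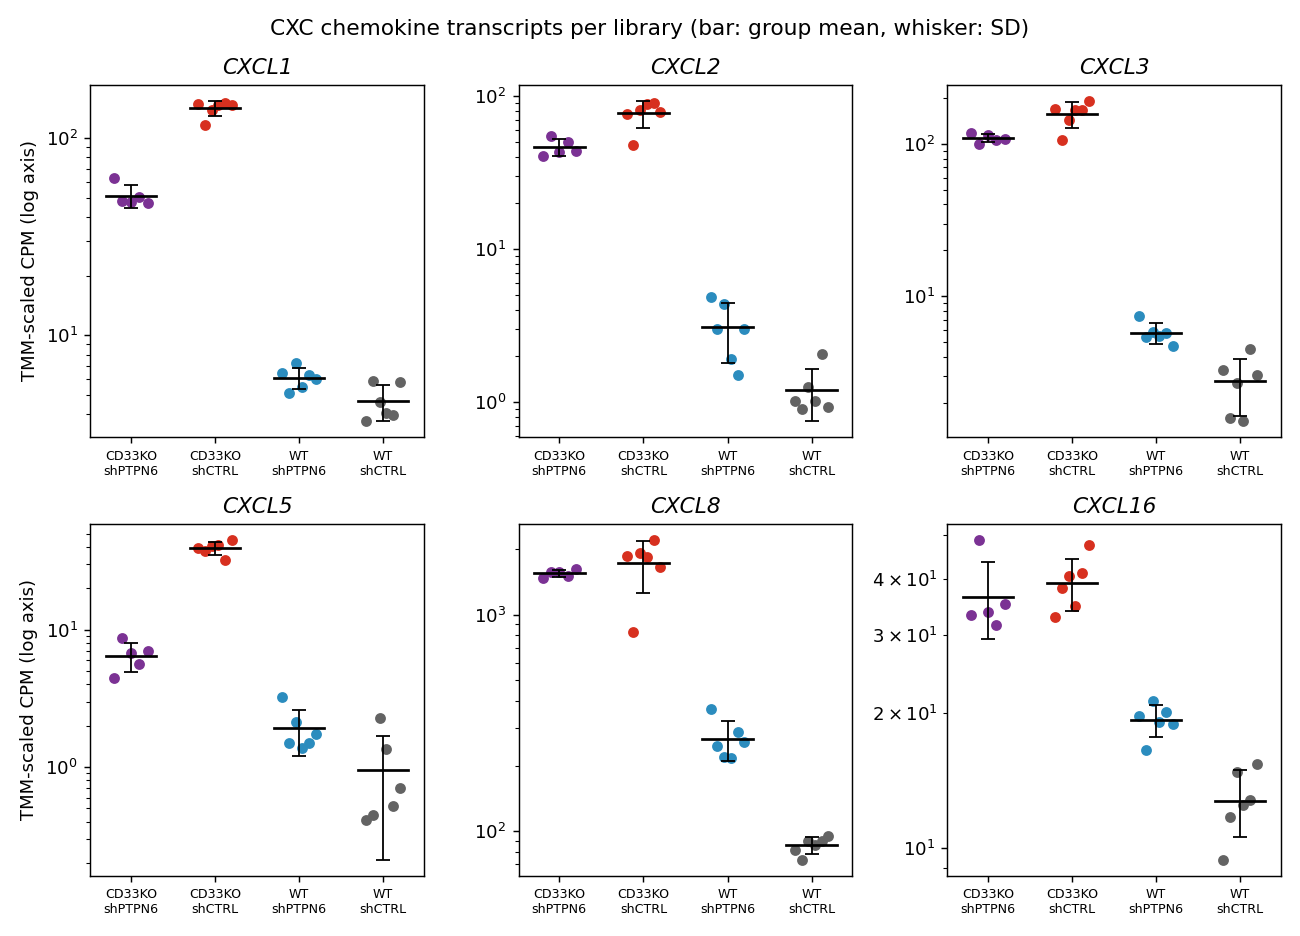
Level of each of the 6 chemokine genes in every library, as TMM-scaled CPM on a log axis, by group. Points are libraries and bars are group means ± SD, and the knockout groups (n = 5 and 6) lie above the wild-type groups (n = 6 each) for every gene.

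The first question was what the CD33 knockout did with the empty vector. All 6 genes rose in CD33KO_shCTRL over WT_shCTRL, by 3.09-fold for CXCL16 and by 20.1-fold to 62.0-fold for the 5 neutrophil chemokines. The background was high, with 56.7% of all tested genes called and 28.3% called higher, and the median change over all tested genes was -0.01 on the log2 scale. The median over the 6 genes was 5.12.

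CXCL2 averaged 77.4 ± 15.7 CPM in CD33KO_shCTRL and 1.20 ± 0.445 CPM in WT_shCTRL (SD, n = 6 each), a log2 change of 5.95 ± 0.18 (edgeR, adjusted p = 4.77e-41). CXCL3 averaged 157 ± 29.8 CPM in CD33KO_shCTRL and 2.76 ± 1.12 in WT_shCTRL, a change of 5.81 ± 0.15 (edgeR, adjusted p = 3.53e-31). CXCL5 averaged 39.4 ± 4.30 CPM in CD33KO_shCTRL and 0.952 ± 0.740 in WT_shCTRL, a change of 5.30 ± 0.21 (edgeR, adjusted p = 3.89e-44). Ranked from the largest rise among 13098 genes, CXCL2 was number 44, CXCL3 number 46 and CXCL5 number 57.

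CXCL1 averaged 142 ± 12.8 CPM in CD33KO_shCTRL and 4.66 ± 0.961 in WT_shCTRL, a change of 4.95 ± 0.11 (edgeR, adjusted p = 5.27e-69, rank 70). CXCL8 averaged 1726 ± 473 CPM in CD33KO_shCTRL and 85.8 ± 7.47 in WT_shCTRL, a change of 4.33 ± 0.19 (edgeR, adjusted p = 2.06e-14, rank 99). CXCL8 thus had the smallest fold of the 5 and the largest gain in transcripts. CXCL16 averaged 39.1 ± 5.26 CPM in CD33KO_shCTRL and 12.7 ± 2.16 in WT_shCTRL, a change of 1.63 ± 0.12 (edgeR, adjusted p = 3.72e-24, rank 513).

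The 2 groups did not overlap for any of the 6 genes, as was so for 34.1% of all tested genes. With no overlap, an exact permutation test over these 12 libraries could only give 0.00216, the smallest p that this design allows. It was two-sided and on log2 values, gave this value for each gene, and adds nothing to the lack of overlap. Leaving out CD33KO_shCTRL replicate 2 changed the CXCL8 value to 4.46 and the CXCL2 value to 6.05.

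PTPN6 knockdown in wild-type cells, the next question, also raised all 6 genes, by less. Here 60.6% of all tested genes were called, 30.2% higher and 30.4% lower, and the median change was 0 over all tested genes and 1.07 over the 6. CXCL8 averaged 265 ± 55.2 CPM in WT_shPTPN6 and 85.8 ± 7.47 in WT_shCTRL, a 3.10-fold rise or 1.63 ± 0.19 on the log2 scale (edgeR, adjusted p = 1.73e-07). CXCL16 averaged 19.3 ± 1.59 CPM in WT_shPTPN6 and 12.7 ± 2.16 in WT_shCTRL, a 1.53-fold rise of 0.61 ± 0.12 (edgeR, adjusted p = 5.27e-06). CXCL3 averaged 5.76 ± 0.905 CPM in WT_shPTPN6 and 2.76 ± 1.12 in WT_shCTRL, a rise of 1.08 ± 0.25 (edgeR, adjusted p = 0.00035).

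These 3 genes had groups that did not overlap, against 37.4% of all tested genes. The other 3 had overlapping groups. CXCL2 averaged 3.11 ± 1.32 CPM in WT_shPTPN6 and 1.20 ± 0.445 in WT_shCTRL, a rise of 1.43 ± 0.31 (edgeR, adjusted p = 5.54e-05). CXCL5 averaged 1.91 ± 0.700 CPM in WT_shPTPN6 and 0.952 ± 0.740 in WT_shCTRL, a rise of 1.06 ± 0.34 (edgeR, adjusted p = 0.00482). CXCL1 averaged 6.09 ± 0.751 CPM in WT_shPTPN6 and 4.66 ± 0.961 in WT_shCTRL, a rise of 0.44 ± 0.17 (edgeR, adjusted p = 0.0226).

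The CXCL1 and CXCL5 calls each rested on single libraries. The CXCL1 change was 0.39 without WT_shPTPN6 replicate 3 (edgeR, adjusted p = 0.0653) and 0.39 without WT_shCTRL replicate 1 (edgeR, adjusted p = 0.0507). The CXCL5 change was 0.81 without WT_shPTPN6 replicate 1 (edgeR, adjusted p = 0.0548), the library that was also highest for CXCL8 at 365 CPM. Two-sided exact permutation tests gave 0.00649 for CXCL2, 0.0216 for CXCL1 and 0.0281 for CXCL5.

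In knockout cells the same knockdown moved none of the 6 genes up. CXCL1, CXCL2, CXCL3 and CXCL5 fell in CD33KO_shPTPN6 relative to CD33KO_shCTRL, and CXCL8 and CXCL16 were not called. Of all tested genes 42.1% were called in this comparison, 20.5% higher and 21.6% lower, and the median change was -0.01 over all and -0.64 over the 6.

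CXCL5 averaged 6.50 ± 1.58 CPM in CD33KO_shPTPN6 (SD, n = 5) and 39.4 ± 4.30 in CD33KO_shCTRL (SD, n = 6), a change of -2.57 ± 0.19 (edgeR, adjusted p = 1.67e-22). CXCL1 averaged 51.2 ± 6.599 CPM in CD33KO_shPTPN6 and 142 ± 12.8 in CD33KO_shCTRL, a change of -1.48 ± 0.09 (edgeR, adjusted p = 2.79e-29). For these 2 genes the groups did not overlap, as for 24.2% of all tested genes.

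CXCL2 averaged 46.6 ± 6.10 CPM in CD33KO_shPTPN6 and 77.4 ± 15.7 in CD33KO_shCTRL, a change of -0.74 ± 0.12 (edgeR, adjusted p = 3.47e-07). CXCL3 averaged 109 ± 7.11 CPM in CD33KO_shPTPN6 and 157 ± 29.8 in CD33KO_shCTRL, a change of -0.53 ± 0.10 (edgeR, adjusted p = 2.6e-05). In both genes the overlap came from CD33KO_shCTRL replicate 2, the lowest of its group at 47.7 and 105 CPM. Without it the changes were -0.85 for CXCL2 and -0.62 for CXCL3.

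CXCL8 averaged 1550 ± 58.2 CPM in CD33KO_shPTPN6 and 1726 ± 473 in CD33KO_shCTRL, a change of -0.16 ± 0.17 (edgeR, adjusted p = 0.491). Without CD33KO_shCTRL replicate 2 the CXCL8 change was -0.30 (edgeR, adjusted p = 0.0282), so this call turned on 1 library. CXCL16 averaged 36.5 ± 7.09 CPM in CD33KO_shPTPN6 and 39.1 ± 5.26 in CD33KO_shCTRL, a change of -0.10 ± 0.12 (edgeR, adjusted p = 0.515).

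The interaction term asks directly whether the knockdown acted differently in the 2 genotypes, as the log2 change in knockout cells minus that in wild-type cells. It was negative and called for all 6 genes, against 28.4% of all tested genes called and 13.9% called lower. CXCL5 had the most negative value at -3.64 ± 0.40 (edgeR, adjusted p = 3.41e-13), followed by CXCL2 at -2.18 ± 0.33 (edgeR, adjusted p = 1.78e-07) and CXCL1 at -1.92 ± 0.20 (edgeR, adjusted p = 9.84e-15). CXCL8 had -1.79 ± 0.25 (edgeR, adjusted p = 1.1e-05), CXCL3 had -1.61 ± 0.27 (edgeR, adjusted p = 9.21e-06) and CXCL16 had -0.72 ± 0.17 (edgeR, adjusted p = 0.000408). Over the 6 genes the median was -1.85, against 0.00 over all tested genes.

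**Figure D2:**
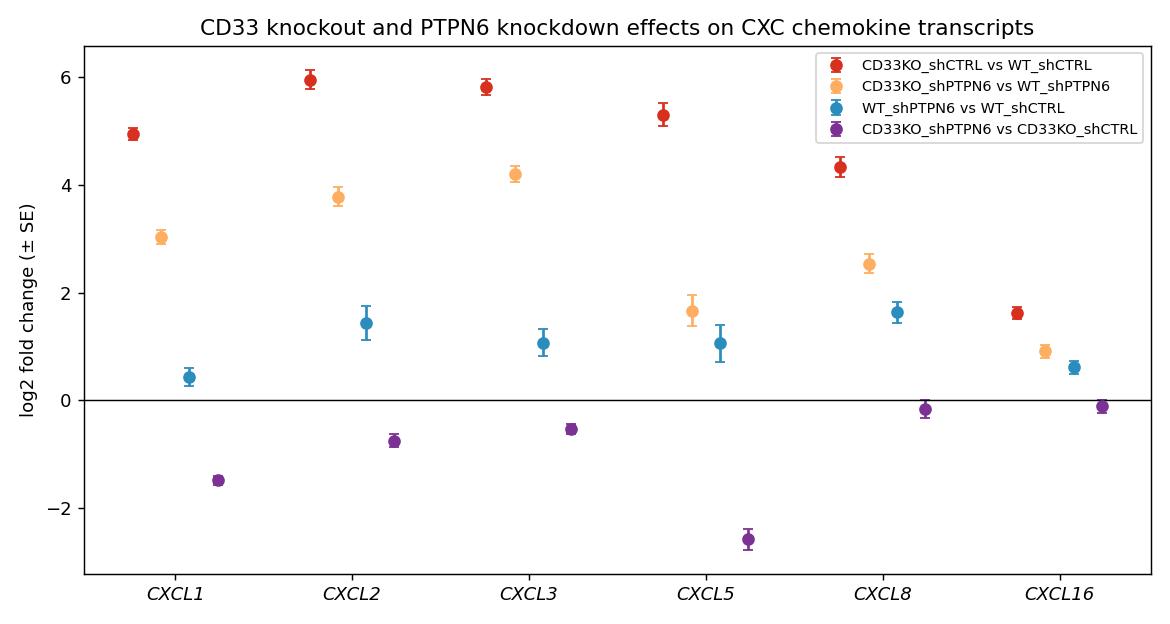
Log2 fold change ± SE of the 6 genes for the knockout with each vector and the knockdown in each genotype, from the edgeR fit to 23 libraries. For every gene the knockdown effect lies above 0 in wild-type cells (0.44 to 1.63). In knockout cells the values run from -2.57 to -0.10, and those of CXCL8 and CXCL16 have SE bars that reach 0 and were not called.

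Cells with both changes still stood above WT_shCTRL for all 6 genes. The rises in CD33KO_shPTPN6 over WT_shCTRL were 38.8-fold for CXCL3, 37.0-fold for CXCL2, 18.1-fold for CXCL8, 11.1-fold for CXCL1, 6.61-fold for CXCL5 and 2.87-fold for CXCL16. In this comparison 63.8% of all tested genes were called, 32.1% higher and 31.7% lower. Against WT_shPTPN6, where 56.5% were called and 29% called higher, the log2 differences in CD33KO_shPTPN6 were 4.20 for CXCL3, 3.78 for CXCL2, 3.03 for CXCL1, 2.54 for CXCL8, 1.66 for CXCL5 and 0.91 for CXCL16, all called. The groups did not overlap for any of the 6 genes in either comparison, as for 45.7% and 37.2% of all tested genes.

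The mixture of chemokine transcripts also differed between groups. Summed over the 6 genes, the level was 1730 to 1857 CPM in CD33KO_shPTPN6, 1179 to 2704 in CD33KO_shCTRL, 250 to 407 in WT_shPTPN6 and 93.8 to 120 in WT_shCTRL. In the knockout with the empty vector these 6 genes took 0.118% to 0.271% of all counts, against 0.00977% to 0.0124% in WT_shCTRL.

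CXCL8 made up 85.0% to 87.0% of this sum in CD33KO_shPTPN6, 70.7% to 82.1% in CD33KO_shCTRL, 84.3% to 89.7% in WT_shPTPN6 and 77.8% to 82.1% in WT_shCTRL. In both genotypes the libraries with the hairpin thus had the higher CXCL8 share, with no overlap with their empty-vector libraries. The levels behind these shares differed. In wild-type cells CXCL8 itself rose with the hairpin, while in knockout cells it was not called and CXCL1, CXCL2, CXCL3 and CXCL5 fell. CXCL16 made up 1.79% to 2.67% in CD33KO_shPTPN6, 1.40% to 3.23% in CD33KO_shCTRL, 4.85% to 8.16% in WT_shPTPN6 and 9.47% to 12.8% in WT_shCTRL. The ratio of CXCL1 to CXCL3 counts was 0.419 to 0.529 in CD33KO_shPTPN6 and 0.770 to 1.11 in CD33KO_shCTRL, so that these close relatives fell by unequal amounts. Shares of a sum depend on each other, and no test was made of them.

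**Figure D3:**
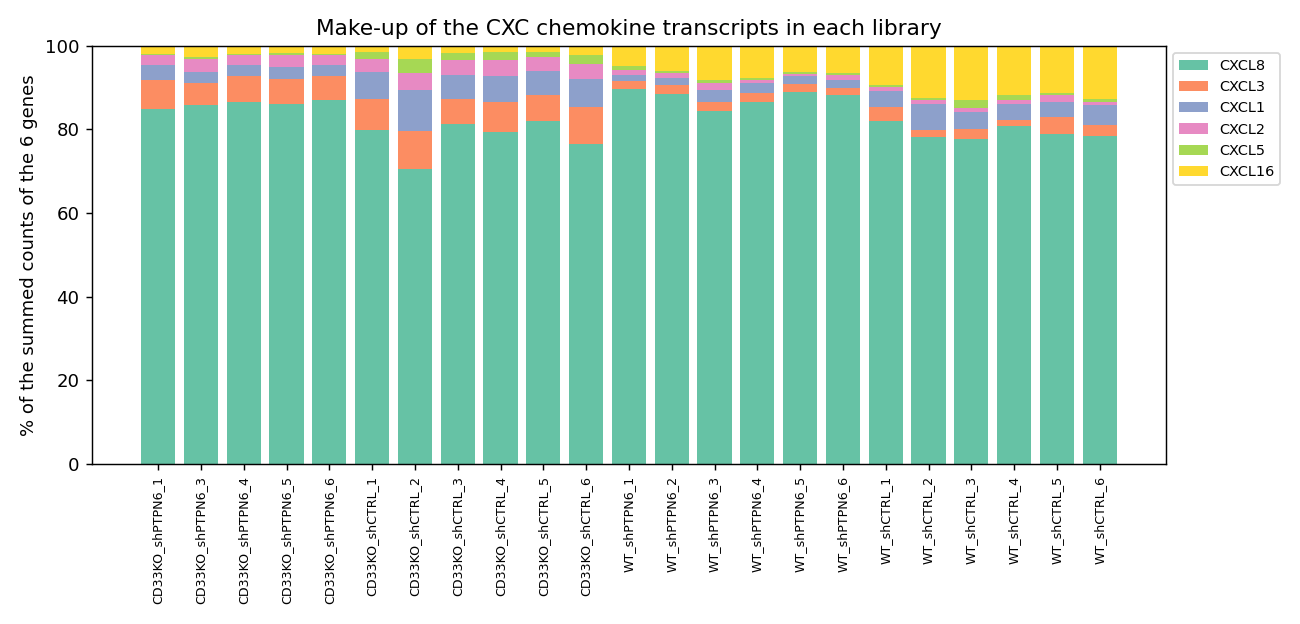
Share of each gene in the summed counts of the 6 chemokine genes, in percent, for each library by group. CXCL8 takes 70.7% to 89.7% in every library, and the CXCL16 share is largest in WT_shCTRL at 9.47% to 12.8%.

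The chromosome 4 cluster between CXCL8 and CXCL2 spans 358.8 kb and holds 9 protein-coding genes in gencode release 29, all of them chemokines, of which 7 were tested. The 2 tested neighbours outside the group went with it in some comparisons and not in others. CXCL6, a further neutrophil chemokine next to CXCL8, averaged 6.51 ± 1.87 CPM in CD33KO_shPTPN6 (SD, n = 5), 35.3 ± 8.34 in CD33KO_shCTRL, 5.12 ± 1.32 in WT_shPTPN6 and 1.68 ± 0.513 in WT_shCTRL (SD, n = 6 each). Its log2 change was 4.36 ± 0.19 for the knockout with empty vector (edgeR, adjusted p = 3.82e-40), 1.60 ± 0.25 for the knockdown in wild type (edgeR, adjusted p = 1.92e-08) and -2.43 ± 0.20 for the knockdown in knockout cells (edgeR, adjusted p = 1.03e-20).

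PPBP, best known from platelets as the precursor of neutrophil-activating peptide 2, averaged 3.25 ± 1.23 CPM in CD33KO_shPTPN6, 17.4 ± 4.801 in CD33KO_shCTRL, 4.99 ± 1.46 in WT_shPTPN6 and 4.23 ± 1.13 in WT_shCTRL. It rose by 2.05 ± 0.20 in the knockout with empty vector (edgeR, adjusted p = 7.38e-17) and changed by -2.39 ± 0.26 with the knockdown in knockout cells (edgeR, adjusted p = 1.1e-13). Its value for the knockdown in wild type was 0.27 ± 0.22 (edgeR, adjusted p = 0.285). Between CD33KO_shPTPN6 and WT_shPTPN6, where all 6 chemokines were higher, neither neighbour was called, with 0.33 ± 0.24 for CXCL6 (edgeR, adjusted p = 0.252) and -0.62 ± 0.30 for PPBP (edgeR, adjusted p = 0.0707). Between CD33KO_shPTPN6 and WT_shCTRL, CXCL6 was higher by 1.93 ± 0.29 (edgeR, adjusted p = 5.38e-09), and PPBP was not called at -0.34 ± 0.30 (edgeR, adjusted p = 0.327). CXCL6 held GGAATTTCC at -89, and PPBP had no match in its 300 bases.

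**Figure D4:**
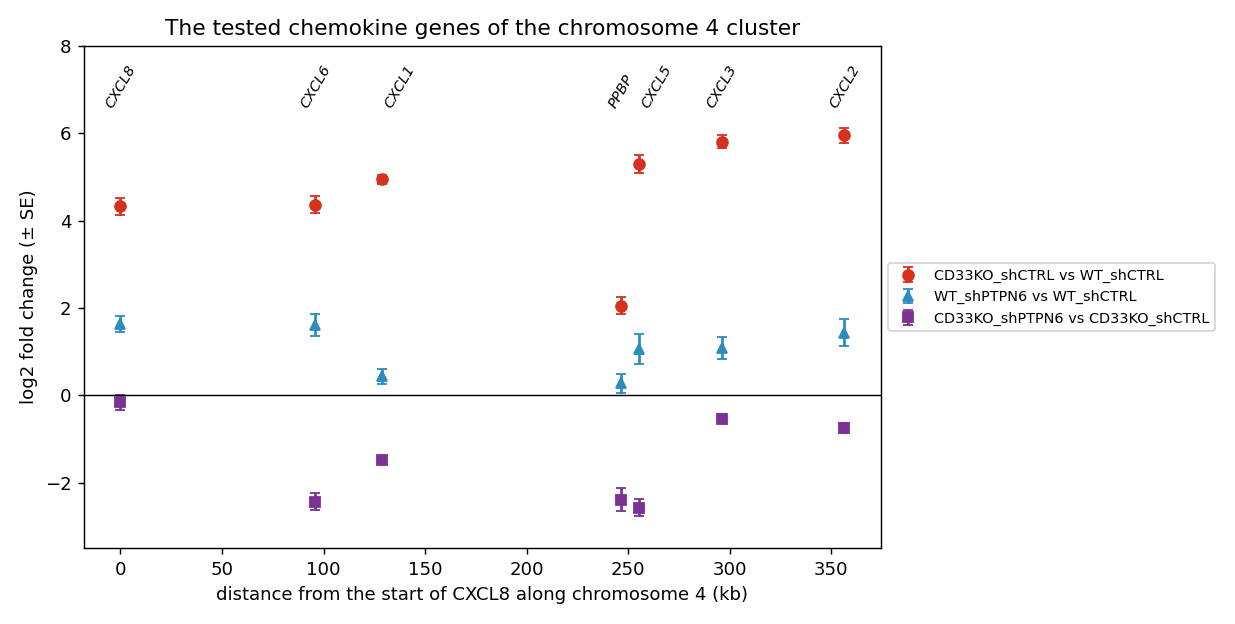
Log2 fold changes ± SE of the tested genes of the chromosome 4 cluster, in their order along the chromosome, for the knockout with empty vector and for the knockdown in each genotype. All 7 genes lie above 0 for the knockout. For the knockdown in knockout cells CXCL8 was not called, at -0.16 ± 0.17, and all the others lie below 0 and were called.

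The counts over the lists that follow are to be read against the share of all tested genes that was called, 56.7% in the knockout, 60.6% with the knockdown in wild type, 42.1% with it in knockout cells and 28.4% for the interaction. Of 11 other CXC ligands, 5 were tested. With the knockout 3 rose and 1 fell, with the knockdown in wild type 2 rose and 1 fell, and with the knockdown in knockout cells 1 rose and 3 fell. CXCL13, which attracts B cells through CXCR5, averaged 220 ± 20.7 CPM in CD33KO_shPTPN6, 920 ± 36.5 in CD33KO_shCTRL, 20.8 ± 3.50 in WT_shPTPN6 and 19.7 ± 4.98 in WT_shCTRL, and is not part of the cluster. CXCL10, an interferon-induced T cell chemokine, went the other way, with a change of -1.39 ± 0.23 for the knockout (edgeR, adjusted p = 9.86e-08) and -1.52 ± 0.20 for the knockdown in wild type (edgeR, adjusted p = 1.37e-10).

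Receptors of these chemokines were scarce. CXCR2, the shared receptor of the neutrophil chemokines, averaged 0.745 ± 0.263 CPM in CD33KO_shPTPN6, 0.439 ± 0.469 in CD33KO_shCTRL, 8.50 ± 1.27 in WT_shPTPN6 and 3.77 ± 0.857 in WT_shCTRL. It fell by 3.13 on the log2 scale in the knockout (edgeR, adjusted p = 2.54e-09) and rose by 1.15 with the knockdown in wild type (edgeR, adjusted p = 1.97e-06). CXCR1 and CXCR6, the receptor of CXCL16, had at most 1 count in any library and did not pass the filter. ACKR3, a scavenging receptor that binds other CXC ligands, rose by 1.66 ± 0.16 with the knockdown in knockout cells (edgeR, adjusted p = 7.36e-17). In all, 6 of 11 receptors were tested, with 2 higher and 3 lower in the knockout and 4 higher and 2 lower with the knockdown in wild type.

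Of 12 genes for proteases that release or trim chemokines and their regulators, 10 were tested, and 6 rose and 2 fell in the knockout, while 1 rose and 6 fell with the knockdown in wild type. The 2 that fell in the knockout were ADAM10, which cuts CXCL16, at -0.32 ± 0.05 (edgeR, adjusted p = 1.7e-07) and CTSG at -2.79 ± 0.30 (edgeR, adjusted p = 1.64e-13). ADAM17, which cuts CXCL16 and TNF from the cell surface, had a knockout value of 0.07 ± 0.04 (edgeR, adjusted p = 0.15) and fell by 0.47 with the knockdown in wild type (edgeR, adjusted p = 2.93e-17). In knockout cells the knockdown raised ADAM17 by 0.57 ± 0.05 (edgeR, adjusted p = 4.62e-20). MMP8, a collagenase of neutrophils that can process CXCL5 and CXCL8, rose by 4.41 ± 0.17 in the knockout (edgeR, adjusted p = 4.92e-24). MMP9, a gelatinase, rose in all 3 comparisons, by 1.29 in the knockout, 2.28 with the knockdown in wild type and 0.87 with it in knockout cells. MMP1, an interstitial collagenase, rose by 1.55 in the knockout and fell by 4.36 with the knockdown in wild type. TIMP3, which inhibits ADAM17, fell by 1.77 with the knockdown in knockout cells, where 4 of the list rose and 5 fell. These are transcript levels, and no cleavage was measured.

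The shared promoter element is named for NF-kB, and the next list holds its subunits, their inhibitors and the kinases of those inhibitors. Of these 13 genes 12 were tested, and 11 rose and 1 fell in the knockout with empty vector, with a median log2 change of 0.94. The 1 that fell was the kinase gene IKBKB, at -0.45 ± 0.10 (edgeR, adjusted p = 2.8e-05). REL, which encodes the c-Rel subunit, averaged 105 ± 2.17 CPM in CD33KO_shCTRL and 26.3 ± 3.35 in WT_shCTRL, a change of 2.00 ± 0.08 (edgeR, adjusted p = 1.33e-44). NFKBIA, the inhibitor that NF-kB itself induces, averaged 966 ± 40.5 CPM in CD33KO_shCTRL and 396 ± 17.4 in WT_shCTRL, a change of 1.29 ± 0.05 (edgeR, adjusted p = 7.38e-35).

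With the knockdown in wild type 7 of the 12 rose and 3 fell, with a median of 0.22. NFKB2 rose by 0.89 ± 0.12 (edgeR, adjusted p = 4.3e-10), while NFKBIA fell by 0.27 (edgeR, adjusted p = 7.21e-06) and REL had a value of -0.03 ± 0.09 (edgeR, adjusted p = 0.824). With the knockdown in knockout cells 4 rose and 3 fell, with a median of -0.00. REL then fell by 0.53 (edgeR, adjusted p = 2.81e-08) and NFKBIA fell by 0.44 (edgeR, adjusted p = 2.44e-10), whereas BCL3 rose by 0.45 (edgeR, adjusted p = 7.51e-08). The interaction was called for 3 of the 12, NFKB2, RELB and REL, all negative, a share near the 28.4% of all tested genes. Levels of these transcripts do not measure the activity of NF-kB, which is set by where the proteins are in the cell.

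**Figure D5:**
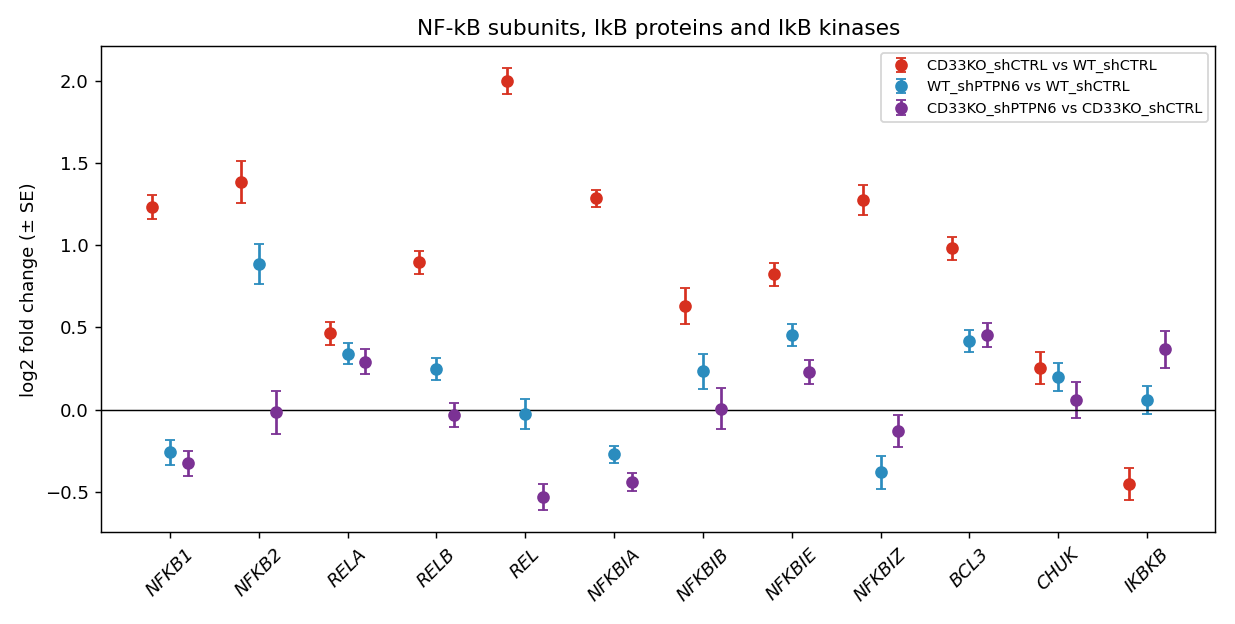
Log2 fold changes ± SE of the tested genes for NF-kB subunits, their inhibitors and kinases, for the knockout with empty vector and the knockdown in each genotype. The largest change is that of REL in the knockout, at 2.00.

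Cytokines and receptors known to induce these chemokines mostly rose in the knockout, and some went against the chemokines when PTPN6 was knocked down in knockout cells. Of 14 genes 11 were tested, and 8 rose and 2 fell in the knockout, with a median of 2.69. The 2 that fell were receptor genes, TNFRSF1A at -1.29 ± 0.07 (edgeR, adjusted p = 4.99e-31) and IL17RA at -1.18 ± 0.06 (edgeR, adjusted p = 3.74e-37). The list also holds IL1RN, an antagonist and not an inducer, which is counted among the 8 that rose. IL1B, which encodes interleukin-1 beta, averaged 6408 ± 296 CPM in CD33KO_shPTPN6, 3340 ± 211 in CD33KO_shCTRL, 827 ± 96.8 in WT_shPTPN6 and 306 ± 24.2 in WT_shCTRL. TNF averaged 93.3 ± 4.51 CPM in CD33KO_shPTPN6, 57.7 ± 8.02 in CD33KO_shCTRL, 14.9 ± 3.59 in WT_shPTPN6 and 8.69 ± 1.95 in WT_shCTRL.

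With the knockdown in wild type 9 of the 11 rose and 0 fell. With the knockdown in knockout cells 5 rose and 3 fell. There IL1B rose by 0.94 ± 0.06 (edgeR, adjusted p = 1.27e-18) and TNF by 0.68 ± 0.10 (edgeR, adjusted p = 5.89e-09), the opposite direction to CXCL1, CXCL2, CXCL3 and CXCL5. IL1RN, which encodes the antagonist of the interleukin-1 receptor, went with those 4 chemokines and fell by 0.88 (edgeR, adjusted p = 3.3e-32).

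Of 11 AP-1 and C/EBP factors 10 were tested, and 7 rose and 1 fell in the knockout. CEBPB, a factor known at the CXCL8 promoter, rose by 2.49 ± 0.06 in the knockout (edgeR, adjusted p = 5.65e-63), by 1.03 ± 0.06 with the knockdown in wild type (edgeR, adjusted p = 1.13e-29) and by 0.39 ± 0.06 with the knockdown in knockout cells (edgeR, adjusted p = 2.55e-09). JUN, an AP-1 subunit, rose by 1.83 ± 0.06 in the knockout (edgeR, adjusted p = 5.52e-52) and by 0.78 ± 0.06 with the knockdown in wild type (edgeR, adjusted p = 4.29e-22), and fell by 0.23 with the knockdown in knockout cells (edgeR, adjusted p = 0.00132). Over the list 7 rose and 2 fell with the knockdown in wild type, and 3 rose and 4 fell with it in knockout cells.

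Of 10 genes for proteins that act on mRNA with AU-rich elements or degrade cytokine mRNA, all were tested, and 5 rose and 4 fell in the knockout. ZC3H12A, whose product degrades IL6 and other inflammatory mRNAs, rose by 2.26 ± 0.08 (edgeR, adjusted p = 2.28e-32). ZFP36L1, a decay factor, fell by 1.14 with the knockdown in wild type (edgeR, adjusted p = 2.67e-44), where 2 of the 10 rose and 2 fell, a smaller share than the 60.6% of all tested genes. With the knockdown in knockout cells 3 rose and 2 fell, near the 42.1% of all tested genes, so these counts show nothing particular to the list.

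The summed level of 12 macrophage markers, most of it from a few abundant genes such as CD14 and CSF1R, was 2065 to 2232 CPM in CD33KO_shPTPN6, 874 to 1040 in CD33KO_shCTRL, 2409 to 2532 in WT_shPTPN6 and 863 to 981 in WT_shCTRL. In the knockout with empty vector 2 of 11 tested markers rose and 7 fell, so the near-equal sums hide changes of single markers. The largest falls were FCGR1A at -4.39, CD163 at -3.33 and LYZ at -2.82, and the 2 rises were CD14 at 1.12 and CD68 at 0.28. Between CD33KO_shPTPN6 and WT_shPTPN6, 1 of 11 was higher and 8 were lower in the knockout cells, where 56.5% of all tested genes were called. With the knockdown in wild type 10 rose and 1 fell, and with it in knockout cells 4 rose, 1 fell and 6 were not called. The marker that fell in both was MSR1, a scavenger receptor, by 2.21 in wild type (edgeR, adjusted p = 1.46e-32) and by 1.04 in knockout cells (edgeR, adjusted p = 8.89e-07). Markers of undifferentiated myeloid cells summed to 67.3 to 80.5 CPM in CD33KO_shPTPN6, 44.5 to 62.1 in CD33KO_shCTRL, 131 to 166 in WT_shPTPN6 and 202 to 221 in WT_shCTRL, and 5 of 5 tested ones fell in the knockout. The part of these markers, and of the lists that follow, in the chemokine results was not tested.

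Neutrophil markers summed to 32.0 to 45.7 CPM in CD33KO_shPTPN6, 42.6 to 92.6 in CD33KO_shCTRL, 23.8 to 29.4 in WT_shPTPN6 and 12.8 to 18.2 in WT_shCTRL, with 1 of 4 tested ones higher and 3 lower in the knockout, and the higher one was MMP8. FCGR3B and CEACAM8, which define mature neutrophils, had a single count each over all 23 libraries. Epithelial and HEK-293 markers summed to 122 to 144 CPM in CD33KO_shPTPN6, 141 to 172 in CD33KO_shCTRL, 82.5 to 116 in WT_shPTPN6 and 78.2 to 103 in WT_shCTRL, with 2 of 4 tested ones higher and 1 lower in the knockout. Fibroblast and endothelial markers summed to 42.9 to 113 CPM in CD33KO_shPTPN6, 80.0 to 100 in CD33KO_shCTRL, 19.9 to 67.5 in WT_shPTPN6 and 29.5 to 70.7 in WT_shCTRL, with 2 of 7 tested ones higher and 1 lower. Lymphocyte markers summed to 499 to 519 CPM in CD33KO_shPTPN6, 383 to 462.03 in CD33KO_shCTRL, 190 to 219 in WT_shPTPN6 and 205 to 240 in WT_shCTRL, nearly all of it NCAM1, with CD3E at 0 to 4 counts per group.

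Genes whose group means followed each chemokine most closely were looked for among 10888 genes with a mean of at least 5 CPM. The measure was the root mean square difference of centred group means of log2(CPM + 1) over the 4 groups. For CXCL1 the nearest genes were MIR3142HG at 0.13, MMP8 at 0.23 and LINC03000 at 0.28. For CXCL2 they were ANGPTL4 at 0.24 and PCDH17 at 0.29, and for CXCL3 PCDH17 at 0.31 and LINC01287 at 0.31, and a gene without a symbol was next for both. The added 1 flattens differences near 0 CPM, so genes near by this measure can differ in fold change. The knockout value was 5.82 for PCDH17 and 9.47 for LINC01287, against 5.81 for CXCL3. The other nearest genes were as follows. For CXCL5 they were CCL22 at 0.25, STC1 at 0.41 and TTN at 0.43. For CXCL8 they were ITGB8 at 0.19, NRG1 at 0.23 and CCL3L3 at 0.27. CXCL16, whose changes were smaller, had closer ones, LFNG at 0.05, IGKC at 0.05 and BASP1 at 0.06. With 4 means per gene such likeness is only a description. The 6 chemokines themselves were left out of the search, so their likeness to each other was not measured.

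Alike sequences limit how these genes can be told apart. In the last 300 bases of the longest coding transcripts, 46 of 251 windows of 50 bases (18.3%) of CXCL1 were also found in CXCL2, and as many of CXCL2 in CXCL1, so reads there could not be assigned to a single gene. CXCL3, CXCL5 and CXCL8 shared none. CXCL16 shared 36 of 251 windows (14.3%) with MED11, which overlaps it on the other strand, and whether counting used the strand is not given in the sources used here. MED11 itself had a knockout value of 0.11 (edgeR, adjusted p = 0.637) and a value of -0.14 for the knockdown in wild type (edgeR, adjusted p = 0.486), and was called higher in CD33KO_shPTPN6 than in WT_shPTPN6, by 0.49 (edgeR, adjusted p = 0.0294).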

How the data were processed

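RNA of 24 labelled samples was sequenced, and 23 libraries were used. CD33KO_shPTPN6 replicate 2 was not analysed here. The authors deposited raw read counts per Ensembl gene, without normalization. Per the labels' protocols, 100 ng of RNA per sample went into a 3′ mRNA library kit. Per the submitters' processing notes the tools were bcl2fastq, STAR 2.7.3a, featureCounts of Subread 2.0.0, hg38, R 3.6.1 and DESeq2 1.26.0, with no settings. Duplicate reads inflate the spread of abundant tags if kept, and unstranded counting can change the counts of genes that overlap on opposite strands.

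The 6 genes and 13 lists were chosen with earlier results of these data known. Of 60617 identifiers 99.41% matched a symbol. In R 4.3.3, edgeR 4.0.16 filtered genes by group (filterByExpr), scaled by TMM and fitted 1 mean per group to all libraries. The quasi-likelihood test gave 6 contrasts with Benjamini-Hochberg adjustment at 0.05 over 13098 genes. The SE is the absolute log2 change over the square root of F, and is approximate for genes near 0. Exact permutation tests used log2(CPM + 1). Named genes are the 6, CD33, PTPN6, any listed CXC ligand, receptor or NF-kB gene, up to 2 called genes per direction, other list and contrast with the smallest adjusted p (some left out for length), and the 3 nearest in pattern to each of the 6. TNF, CSF3, IL6, MED11 and the other cell markers fall outside this rule and were chosen after their values were seen. Alternatives were RLE and upper-quartile scaling, DESeq2 1.42.0, no filter, a fit of 2 groups, a replicate block and leaving out each library. The fit was tested on simulated data. Same-numbered libraries did not deviate together (33 pairs, correlations of -0.0513 to 0.034), and no 2 libraries were alike enough to be duplicates (chi-square per degree of freedom at least 1.52). Depth limits precision below a few CPM, where 3 counts in a shallow library give 1.55 CPM. Promoters and positions came from RefSeq and gencode tables, read with Python 3.11.15 and Biopython 1.88.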

Additional observations from a re-analysis of the deposited data

Results flagged for a closer look

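In 5 of 24 sets of a gene and a group, 1 library lay far from the others, where chance gives about 1 in 20. CXCL1 in CD33KO_shPTPN6 replicate 1 was at 62.73 CPM, with 47.03 to 50.51 in the other libraries of the group. CXCL16 in CD33KO_shPTPN6 replicate 3 was at 48.91 CPM, with 31.44 to 35.17 in the others. In CD33KO_shCTRL replicate 2, CXCL1 was at 117.3 CPM, with 139.4 to 151.6 in the others, and CXCL2 at 47.67 CPM, with 76.26 to 90.95 in the others. CXCL2 in WT_shCTRL replicate 5 was at 2.069 CPM, with 0.9001 to 1.248 in the others.

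The effect of the PTPN6 knockdown differed between knockout and wild-type cells for all 6 genes by the edgeR interaction term. The log2 differences were -1.92 for CXCL1, -2.18 for CXCL2, -1.61 for CXCL3, -3.64 for CXCL5, -1.79 for CXCL8 and -0.72 for CXCL16.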

How the results depend on the processing

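The counts of called genes stayed within 1.5 times the main count in all 6 contrasts under every alternative run. For the 6 chemokines, 207 log2 changes under other scalings, tests, filters and fits and 824 with a library left out kept their direction and their side of the threshold, and the exceptions follow. With only the 2 wild-type groups in the fit, the CXCL1 change for the knockdown in wild type was 0.42 (edgeR, adjusted p = 0.063). With 1 library left out, that CXCL1 value ranged between 0.39 and 0.52, the CXCL5 value for the same comparison between 0.81 and 1.49, and the CXCL8 value for the knockdown in knockout cells between -0.30 and -0.072. The CXCL1 call was lost without WT_shPTPN6 replicate 3 or WT_shCTRL replicate 1 and the CXCL5 call without WT_shPTPN6 replicate 1, and CXCL8 was called without CD33KO_shCTRL replicate 2. The cause was not tested. Group mean CPM moved by less than 1 SD under the other scalings and with any library left out. With the replicate number as a block, the CXCL8 change for the knockdown in knockout cells was -0.21 (edgeR, adjusted p = 0.297) and the interaction of CXCL16 was -0.74 (edgeR, adjusted p = 0.000223), and the block changed no call of the 6 genes. A deviation shared by same-numbered libraries was not seen, since 0 of 33 same-number correlations passed 0.1, which does not show that the samples were unpaired. The levels of CXCL2 and CXCL5 in wild-type cells rest on few counts, 37 and 29 over the 6 WT_shCTRL libraries.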

Other observations

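CSF3, which encodes the granulocyte growth factor G-CSF, had 5.15 ± 0.947 CPM in CD33KO_shPTPN6 (SD, n = 5) and 9.03 ± 0.937 in CD33KO_shCTRL (SD, n = 6), against 0 counts in every WT_shPTPN6 and WT_shCTRL library. Against a floor of 3 counts summed over the 6 WT_shCTRL libraries, CSF3 was at least 52-fold higher in CD33KO_shPTPN6 and at least 89.6-fold higher in CD33KO_shCTRL. IL6 had 5 counts in all in CD33KO_shPTPN6 and 42 in CD33KO_shCTRL, and 0 in the wild-type groups, which is at least 28.5-fold higher in CD33KO_shCTRL than in WT_shCTRL by the same floor. Both genes were chosen after their values were seen.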
